A study of Mus musculus with 24 samples.

Results

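The myogenic bHLH genes Myod1, Myf5, Myf6 and Myog and the Mef2 genes Mef2a, Mef2b, Mef2c and Mef2d were followed by RNA-seq in differentiating mouse muscle cells. Members were found in the table by gene name alone. Of the 8 named genes, 7 had a row in the deposited table of 28109 genes, and Mef2b was not analysed here. Polyadenylated RNA was sequenced from C2C12 cells, an immortal line of mouse myoblasts that the labels assign to strain C3H, and from primary myoblasts (PMs) of strain C57/B6. Both cell types received either a control siRNA (siControl, named siLuc in the labels, against luciferase) or siRNAs against Tead1 and Tead4 together (siTead1/4). Cells were collected 24 hours after transfection, before differentiation (day 0), and after 3 and 6 days in medium with 2% horse serum (day 3 and day 6). The 12 groups had 2 biological replicates each, which gave 24 libraries. C2C12 is a single established line, so its replicates do not cover variation between animals. For PMs it is not known here whether the replicates came from different animals. The culture medium differed between the cell types. Cell type, strain, origin and medium therefore cannot be told apart in any comparison of C2C12 cells with PMs.

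The myogenic bHLH factors bind the E-box as heterodimers with the ubiquitous E proteins and can turn on the muscle programme. Myf5 and Myod1 mark the committed myoblast, Myog (myogenin) drives entry into terminal differentiation, and Myf6 (also called MRF4) is best known from later stages and adult fibres. Mef2 factors bind an A/T-rich site in muscle promoters, act together with the bHLH factors and are restrained by class IIa histone deacetylases. Tead factors bind the MCAT element, which is found in many muscle genes.

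The sequences just before the annotated starts of 4 members are shown because these genes moved most in differentiation or stood farthest apart between the cell types. They run from 250 bases to 1 base before the start on the strand of the gene, and were read from the mm9 genome with the GENCODE vM1 gene starts. Capitals mark every E-box (CANNTG), MCAT element (CATTCC) and match to the fixed Mef2 pattern given below, on either strand.
Myog, chr1:136186331-136186580, plus strand: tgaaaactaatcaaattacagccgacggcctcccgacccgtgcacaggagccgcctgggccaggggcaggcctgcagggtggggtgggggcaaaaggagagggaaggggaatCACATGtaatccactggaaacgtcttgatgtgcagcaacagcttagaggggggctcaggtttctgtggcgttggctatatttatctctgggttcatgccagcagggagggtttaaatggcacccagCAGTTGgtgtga
Mef2c, chr13:83642783-83643032, plus strand: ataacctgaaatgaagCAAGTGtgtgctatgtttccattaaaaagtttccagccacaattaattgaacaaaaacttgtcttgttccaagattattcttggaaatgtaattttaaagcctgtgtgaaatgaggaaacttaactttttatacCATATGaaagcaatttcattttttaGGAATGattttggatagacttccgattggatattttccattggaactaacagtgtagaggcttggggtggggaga
Myf6, chr10:106931786-106932035, minus strand: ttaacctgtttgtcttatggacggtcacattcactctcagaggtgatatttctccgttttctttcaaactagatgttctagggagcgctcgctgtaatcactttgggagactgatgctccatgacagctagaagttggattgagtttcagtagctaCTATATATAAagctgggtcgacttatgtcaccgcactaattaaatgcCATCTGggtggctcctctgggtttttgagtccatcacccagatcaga
Myod1, chr7:53631594-53631843, plus strand: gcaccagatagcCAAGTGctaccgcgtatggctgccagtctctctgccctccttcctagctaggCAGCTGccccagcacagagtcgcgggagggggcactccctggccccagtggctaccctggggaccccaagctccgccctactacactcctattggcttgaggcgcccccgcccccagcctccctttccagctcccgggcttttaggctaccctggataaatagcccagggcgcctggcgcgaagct

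E-boxes were found in 4 of the 7 windows, with 2 matches each before Myog, Mef2c and Myod1 and 1 before Myf6, against 63.5% of the 22375 protein-coding genes whose window could be read. A single MCAT element lay 75 to 70 bases before the annotated start of Mef2c, on the opposite strand, and none of the other 6 windows held those letters, against 11.4% of all genes. Mef2 sites were sought by 1 fixed pattern: CTA, 4 letters that are A or T, TA, then A or G. The only match was 94 to 85 bases before Myf6, where 1.70% of all windows held one. Near matches, such as ctatatttat before Myog, were not counted, so a Mef2 site of another form is not excluded. The windows of Myf5, Mef2a and Mef2d held none of the 3 motifs. These are matches of letters near the outermost annotated start, which for Mef2c is 1 of 2 annotated starts of coding transcripts and for Mef2a and Mef2d 1 of 3, and binding was not measured in these data.

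On the mm9 build, Myod1 (ENSMUSG00000009471) spans chromosome 7 from 53631844 to 53634462 and Myog (ENSMUSG00000026459) chromosome 1 from 136186581 to 136189124. Myf5 (ENSMUSG00000000435; chromosome 10 from 106919964 to 106923190) and Myf6 (ENSMUSG00000035923; chromosome 10 from 106929916 to 106931785) are neighbours with 6725 bases between them. The Mef2 genes are long, with Mef2a (ENSMUSG00000030557) on chromosome 7 from 74376049 to 74517744, Mef2c (ENSMUSG00000005583) on chromosome 13 from 83643033 to 83806684 and Mef2d (ENSMUSG00000001419) on chromosome 3 from 87946294 to 87976008. The kit does not mark strand, and Mef2d shares bases with the non-coding RNA gene 1700113A16Rik, so reads of both cannot be told apart there.

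Total counts on genes ranged from 25453830 to 52784510 in the C2C12 libraries and from 32571583 to 51110723 in the PM libraries. The log2 levels of the 2 replicates of a group correlated across genes at r = 0.990 to 0.998, lowest for silenced C2C12 cells before differentiation and after 3 days, and genes are not independent replicates. Levels are given as CPM, counts divided by library size, with library sizes scaled by the TMM factors of all 24 libraries. Differences were tested with edgeR's quasi-likelihood test within a cell type, and a gene was called where its log2 fold change passed 1 in either direction with a p, adjusted by Benjamini-Hochberg over all genes, below 0.05. Tead4 was down-regulated by siTead1/4 in C2C12 cells at days 0 and 3 and in PMs at all 3 days, and Tead1 in PMs at days 0 and 3. Tead1 in siTead1/4 C2C12 cells at day 0 was at 28.9 and 4.50 CPM in the 2 replicates, against 70.5 and 113 CPM in siControl, and missed the call (log2 fold change -2.46, adjusted p = 0.17). In C2C12 cells the silencing was not shown by the test for Tead1 at day 3 (-1.09, adjusted p = 0.50), for Tead1 at day 6 (-0.52, adjusted p = 0.95) or for Tead4 at day 6 (-1.28, adjusted p = 0.32), which limits the comparisons of siTead1/4 with siControl there. The same limit holds for Tead1 in PMs at day 6 (-1.10, adjusted p = 0.14), at 142 and 71.3 CPM against 283 and 175 CPM in siControl. Myogenic markers (Des, Cdh15, Itga7, Pax7, Chrna1 and Myh3) were present in every library, with summed levels of 877 to 15982 CPM in C2C12 cells and 6435 to 22291 CPM in PMs. Markers of Schwann cells, endothelium and macrophages summed to at most 15.5, 14.4 and 6.18 CPM in any library and those of adipocytes to at most 0.424 CPM. Fibroblast markers summed to 789 to 3267 CPM in C2C12 cells and 322 to 949 CPM in PMs, nearly all of it Col3a1, with the fibroblast factor Tcf21 at 0 in every library. In bulk RNA, fewer cells of a type and less RNA per cell cannot be told apart.

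**Figure D1:**
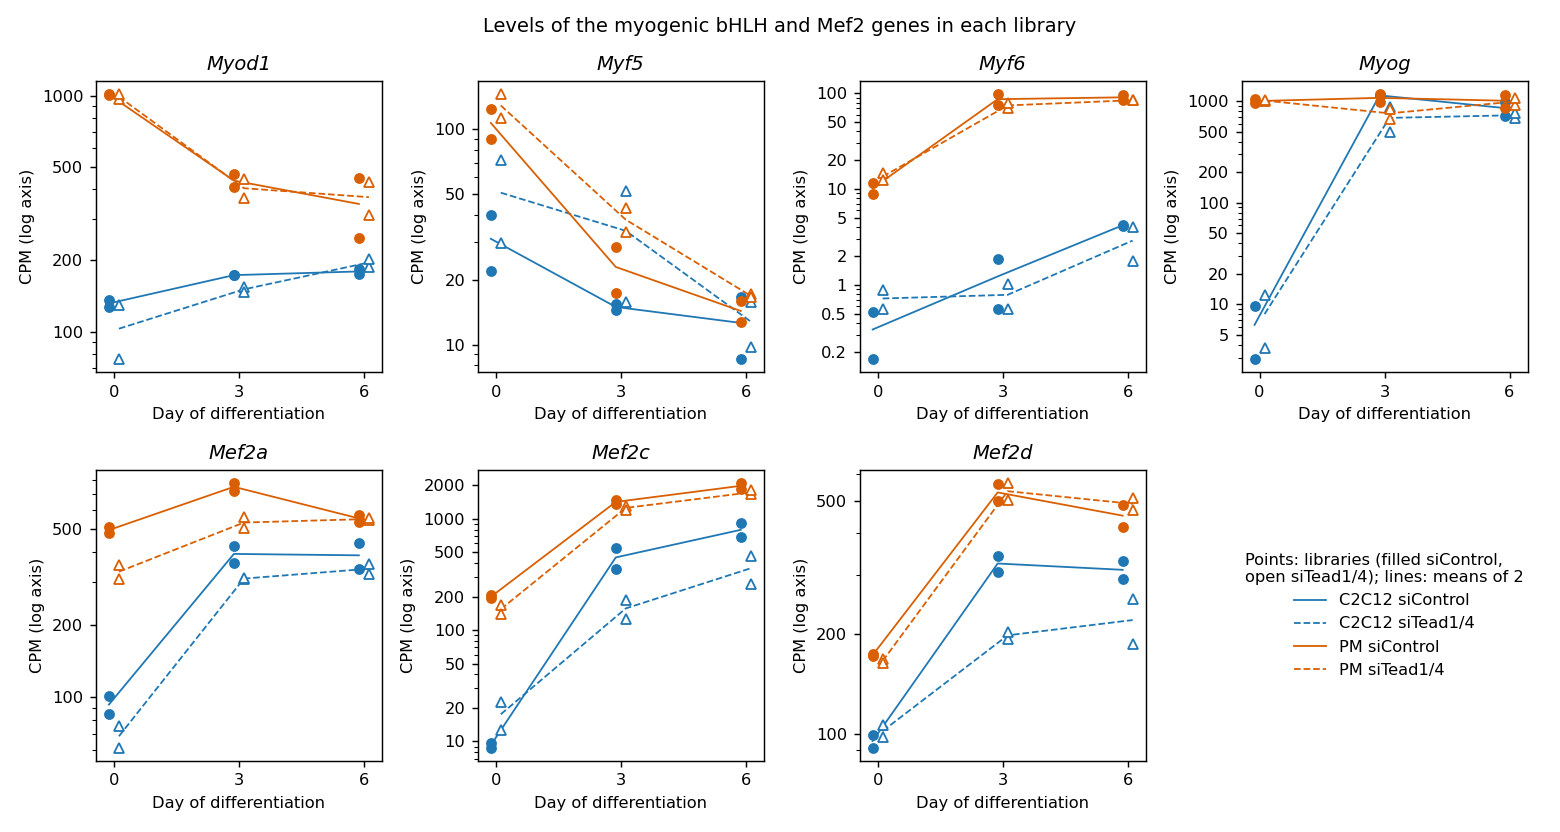
Level of each of the 7 measured genes in every library, as CPM on a log axis, against the day of differentiation. Filled circles are siControl and open triangles siTead1/4 libraries, blue C2C12 cells and orange PMs, and lines join the means of 2 replicates. Myog and Mef2c rose steeply from day 0 to day 3 in C2C12 cells, while Myog was at 960 and 1039 CPM at day 0 in siControl PMs.

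In siControl C2C12 cells, Myog and the 3 measured Mef2 genes rose during differentiation. Myog was at 9.68 and 2.91 CPM in the replicates at day 0, at 1154 and 1125 CPM at day 3 and at 718 and 990 CPM at day 6. It was the member that moved most, with log2 fold changes of 7.47 ± 0.77 (SE, n = 2 libraries per group, adjusted p = 5.84e-05) at day 3 and 7.05 ± 0.75 at day 6. Without the first day 0 replicate these were 8.58 and 8.16, and without the second 6.83 and 6.42. Mef2c went from 8.81 and 9.68 CPM at day 0 to 351 and 548 CPM at day 3 and 681 and 910 CPM at day 6, which gave log2 fold changes of 5.56 ± 0.44 and 6.39 ± 0.46. Mef2a was at 84.7 and 101 CPM at day 0, 362 and 427 CPM at day 3 and 341 and 437 CPM at day 6. Mef2d, the Mef2 member with the flattest course, was at 99.9 and 91.4 CPM, then 307 and 343 CPM, then 291 and 331 CPM. The day 0 libraries thus lay below all later ones for these 4 genes. The fold changes at day 3 were 2.05 ± 0.21 for Mef2a and 1.72 ± 0.20 for Mef2d on the log2 scale, and at day 6 they were 2.03 ± 0.21 and 1.66 ± 0.20.

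The early bHLH genes behaved differently in these cells. Myod1 was at 136 and 127 CPM at day 0, 173 and 174 CPM at day 3 and 175 and 184 CPM at day 6, without overlap between day 0 and the later days, but the log2 fold changes of 0.36 ± 0.23 and 0.41 ± 0.23 did not pass the test. Myf5 was at 22.0 and 40.0 CPM, then 14.4 and 15.5 CPM, then 16.6 and 8.59 CPM. Its log2 fold changes of -1.09 ± 0.59 and -1.33 ± 0.59 were not called, with replicates that lay far apart at days 0 and 6. Myf6 was at the edge of detection at day 0, with 6 and 29 counts (0.169 and 0.515 CPM), and had 24 and 93 counts at day 3 and 216 and 126 counts at day 6. It was up-regulated at day 6, by 3.50 ± 0.70 on the log2 scale (adjusted p = 0.0027) and by 4.56 without the second day 0 replicate, while at day 3 the log2 fold change was 1.74 ± 0.68 (adjusted p = 0.066), and DESeq2 also called it at day 3 (adjusted p = 0.027, with a range of 0.00065 to 0.57 over all alternatives).

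In all, 4 of 7 members were called at day 3 and 5 at day 6 against day 0 in siControl C2C12 cells, each of them upwards, where 28.7% and 31.1% of all tested genes were called in either direction. Fibroblast markers in these cells, mostly Col3a1, summed to 789 to 1298 CPM before differentiation, to 2524 to 3101 CPM after 3 days and to 2395 to 2448 CPM after 6 days. Their part in these results was not tested. Between days 3 and 6 none of the members was called and 0% of the 15303 tested genes were called by edgeR, with 406 genes and 2 members (Myf6 and Mef2c) past an unadjusted p of 0.05. DESeq2 called 17 genes and 0 members in that comparison.

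In siControl PMs Myog was already high at day 0, and its change did not pass the test. Myogenic markers in these day 0 PM libraries summed to 8273 to 8679 CPM, against 1562 to 1824 CPM in siControl C2C12 cells at day 0. The part of this starting state in the course of Myog was not tested. Myog was at 960 and 1039 CPM at day 0, 986 and 1168 CPM at day 3 and 858 and 1159 CPM at day 6, with overlapping ranges. The log2 fold changes against day 0 were 0.05 (95% confidence interval -0.32 to 0.42) and -0.05 (-0.42 to 0.31). Myod1 fell from 1006 and 1012 CPM to 408 and 464 CPM at day 3 and 249 and 445 CPM at day 6, by 1.27 ± 0.24 and 1.60 ± 0.24 on the log2 scale. Myf5 fell from 90.1 and 124 CPM to 17.4 and 28.5 CPM and then to 12.7 and 16.0 CPM. This was the largest decrease among the members, by 2.28 ± 0.25 at day 3 and 2.97 ± 0.26 at day 6 on the log2 scale (adjusted p = 2.45e-05 and 4.41e-06).

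Myf6 and 2 Mef2 genes rose in the same cells. Myf6 was at 11.5 and 8.90 CPM at day 0, 75.8 and 97.6 CPM at day 3 and 85.6 and 95.7 CPM at day 6, log2 fold changes of 3.03 ± 0.17 and 3.08 ± 0.17. Mef2c went from 193 and 205 CPM at day 0 to 1351 and 1482 CPM at day 3 and then to 1856 and 2098 CPM at day 6. Its log2 fold changes were 2.78 ± 0.13 and 3.25 ± 0.14, and the day 6 libraries lay above those of day 3 (log2 fold change 0.47 ± 0.13, adjusted p = 0.055, not called). Mef2d went from 172 and 174 CPM to 562 and 498 CPM and then 419 and 485 CPM, which made it up-regulated by 1.56 ± 0.12 and 1.32 ± 0.11. Mef2a was at 481 and 512 CPM at day 0, 780 and 724 CPM at day 3 and 534 and 576 CPM at day 6, so that day 3 stood above both other days. The difference of 0.54 ± 0.11 at day 3 passed the adjusted p (0.0014) but not the fold threshold.

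These calls make 5 of 7 members at day 3 and the same 5 at day 6, 3 up-regulated and 2 down-regulated, beside 32.3% and 35.5% of all tested genes. Between days 3 and 6 no member was called in PMs, where 2.80% of the genes were, and DESeq2 called 0 members. An unadjusted p of 0.05 was passed by 3 members (Myf5, Mef2a and Mef2c) and by 3547 of 16144 genes. The fibroblast markers, which summed to 459 to 503 CPM at day 0, were at 322 to 554 CPM at day 3 and, in both day 6 libraries, at 949 CPM, and their part in these results was not tested.

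**Figure D2:**
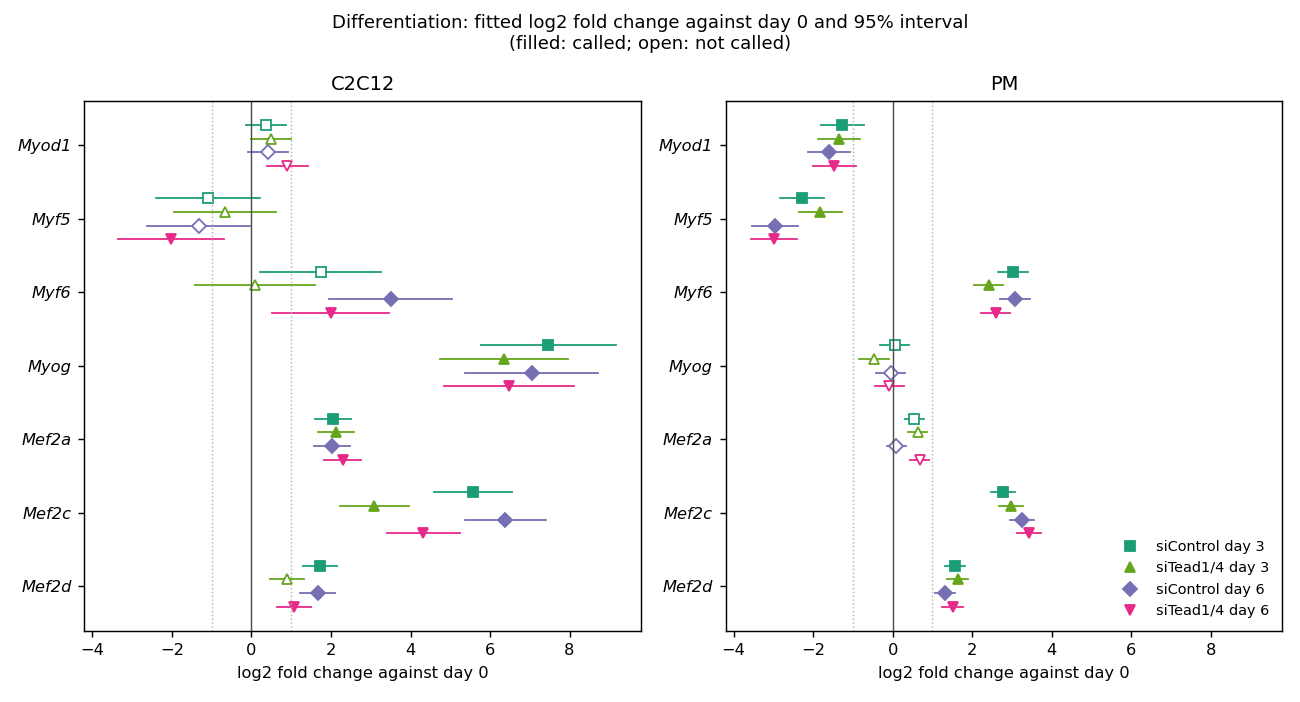
Fitted log2 fold change of each gene at day 3 and day 6 against day 0 (x axis) in C2C12 cells and PMs, with 95% confidence intervals as lines. Squares and diamonds are siControl and triangles siTead1/4 cells, dotted lines stand at a log2 fold change of 1 in each direction, and filled symbols were called. Myog lies at 6.35 to 7.47 in C2C12 cells and at -0.47 to 0.05 in PMs, where Myod1 and Myf5 lie below 0.

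The same genes were followed in siTead1/4 cells, where days are compared within the silenced cells. In C2C12 cells Myog went from 3.74 and 12.3 CPM at day 0 to 491 and 876 CPM at day 3 and 685 and 768 CPM at day 6, up-regulated by 6.35 ± 0.73 and 6.47 ± 0.73 on the log2 scale, and by 7.46 and 7.58 without the second day 0 replicate. Mef2c went from 22.4 and 12.7 CPM to 126 and 187 CPM and then to 257 and 461 CPM, by 3.09 ± 0.39 and 4.33 ± 0.42. The later libraries of both genes lay well above day 0, as they did in siControl cells. Mef2a was up-regulated by 2.12 ± 0.21 and 2.29 ± 0.21. Mef2d, at 107 and 98.0 CPM at day 0, 194 and 202 CPM at day 3 and 186 and 254 CPM at day 6, passed the fold threshold at day 6 alone (1.07 ± 0.19, against 0.89 ± 0.19 at day 3), and without the second day 6 replicate that value was 0.83.

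With siTead1/4, 3 of 7 members were called at day 3 in C2C12 cells, beside 24.6% of all genes. At day 6 the count was 6 of 7, beside 25.1%, with Myf6 up-regulated (2.00 ± 0.66) and Myf5 down-regulated (-2.03 ± 0.60) in addition to Myog and the Mef2 genes. The call of Myf5 was lost without the second day 0 replicate (log2 fold change -1.23) and without either day 6 replicate (-2.40 and -1.72), and that of Myf6 without either day 0 replicate (1.74 and 2.35) and without the second of day 6 (1.29). Between days 3 and 6 edgeR called 0% of the genes and no member, with 1183 genes and 3 members (Myf5, Myf6 and Mef2c) past an unadjusted p of 0.05, and DESeq2 called 94 genes and 0 members.

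In siTead1/4 PMs the 5 genes called in siControl cells were called in the same directions at both days. Myf6 rose by 2.42 ± 0.16 and 2.60 ± 0.17 and Mef2c by 2.97 ± 0.14 and 3.43 ± 0.14 at days 3 and 6, and Mef2d by 1.63 ± 0.12 on the log2 scale at day 3. At day 6 Mef2d was at 509 and 471 CPM, against 169 and 163 CPM at day 0. Myod1 fell by 1.34 ± 0.24 and 1.47 ± 0.24, and Myf5 by 1.82 ± 0.25 and 2.99 ± 0.26. The background share of called genes was 28.3% at day 3 and 31.9% at day 6. Myog was at 1010 and 1016 CPM at day 0, 674 and 842 CPM at day 3 and 918 and 1063 CPM at day 6. Its day 3 libraries lay below those of both other days. Against day 0 the day 3 difference of -0.47 ± 0.17 passed the adjusted p (0.033) but not the fold threshold. The difference of day 6 against day 3 (0.38 ± 0.17, adjusted p = 0.20) passed neither. Myf5 was the 1 member called between days 3 and 6 (33.2 and 42.9 CPM against 17.1 and 16.6 CPM, log2 fold change -1.17 ± 0.25), where 2.97% of the genes were called. That call was lost without any 1 of the 4 libraries compared (log2 fold changes -1.34 to -0.98) and with all 24 libraries in a single fit (-1.17).

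The effect of the silencing itself is the comparison of siTead1/4 with siControl at the same day. By the main edgeR test no member was called at any day in either cell type, and this depended on the processing. Without the filter on low counts Mef2c and Myf5 were called at day 3 and Mef2c at day 6 in C2C12 cells. With the filter kept and all 24 libraries in a single fit, Mef2c was called at day 3 in C2C12 cells. Leaving out 1 library also moved a call of Myf5 in PMs, as given below. The share of all genes called was 0.438%, 1.27% and 0.0457% in C2C12 cells and 2.60%, 3.30% and 0.743% in PMs at days 0, 3 and 6. An unadjusted p of 0.05 was passed by 2, 2 and 2 members in C2C12 cells and by 3, 3 and 0 in PMs. Among all genes it was passed by 1603, 2180 and 1064 of 15303 in C2C12 cells. In PMs it was passed by 3756, 3668 and 1914 of 16144 genes. DESeq2 called Mef2c at day 3 in C2C12 cells and no other member.

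Mef2c stood nearest to a call in C2C12 cells. At day 3 it was at 126 and 187 CPM with siTead1/4 against 351 and 548 CPM with siControl, and at day 6 at 257 and 461 CPM against 681 and 910 CPM. The groups did not overlap at either day, and every silenced library lay below every control library. The log2 fold changes were -1.55 ± 0.37 at day 3 (adjusted p = 0.078) and -1.14 ± 0.37 at day 6 (adjusted p = 0.45, with a range of 0.0020 to 0.999 over all alternatives). At day 0 the order was the opposite, with 22.4 and 12.7 CPM in the silenced and 8.81 and 9.68 CPM in the control cells (0.92 ± 0.37, adjusted p = 0.41). With all 24 libraries in a single fit the day 3 difference was -1.52 and called (adjusted p = 0.0071), and over all alternatives run its adjusted p ranged from 7.11e-07 to 0.46.

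The differences of other members in C2C12 cells did not pass the main test. Mef2d was at 194 and 202 CPM at day 3 in silenced cells against 307 and 343 CPM in controls, without overlap (-0.74 ± 0.19, adjusted p = 0.10), and at 186 and 254 CPM against 291 and 331 CPM at day 6 (-0.49 ± 0.19). Myog was at 491 and 876 CPM at day 3 against 1154 and 1125 CPM, a log2 fold change of -0.77 ± 0.58 with a 95% interval from -2.05 to 0.51. The 2 silenced libraries differed more from each other than the higher of them from the controls. Myf5 at day 3 was at 15.9 and 51.6 CPM against 14.4 and 15.5 CPM, and its log2 fold change was 1.14 ± 0.59 (adjusted p = 0.43, with a range of 0.0014 to 0.98 over all alternatives), and 0.07 without the second silenced replicate. Myod1 differed least, with log2 fold changes of -0.36, -0.23 and 0.13 at days 0, 3 and 6, all within 95% intervals that included 0. In the same libraries the myogenic markers summed to 5785 and 6906 CPM in silenced cells at day 3, against 12913 to 15363 CPM in controls. Most of this gap was Myh3, whose means are given below with the target genes. The part of this gap in the levels of the members was not tested.

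**Figure D3:**
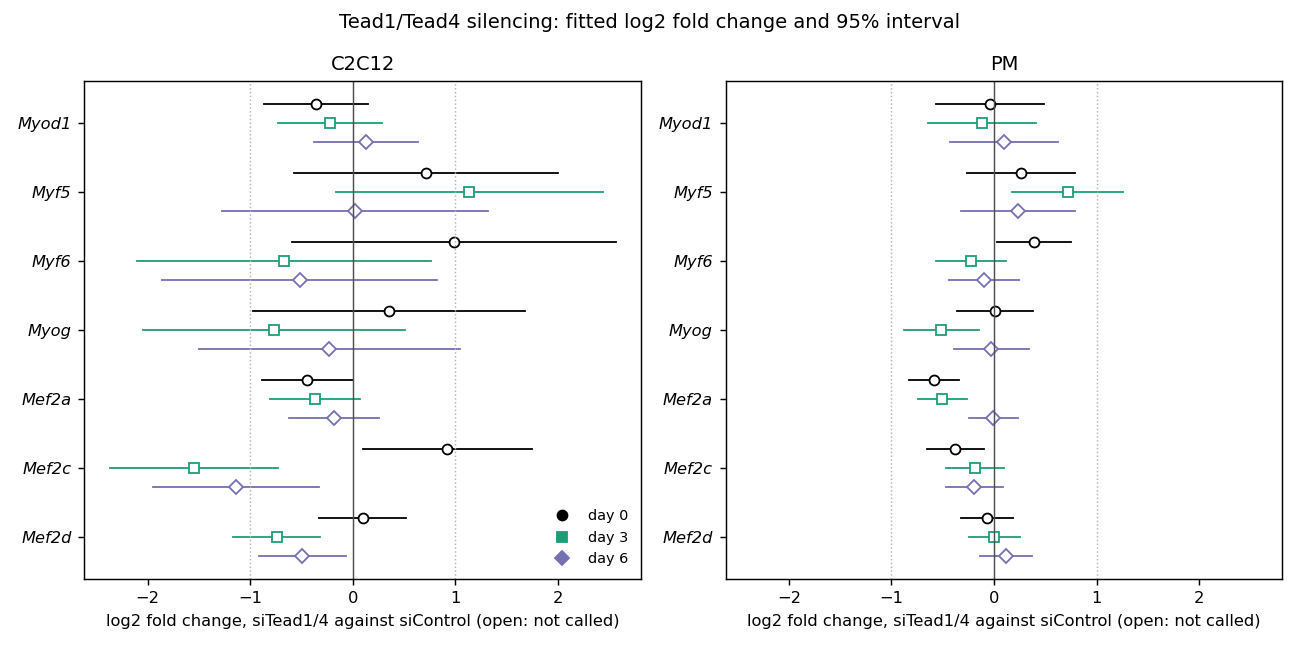
Fitted log2 fold change of siTead1/4 against siControl (x axis) for each gene at days 0, 3 and 6, with 95% confidence intervals as lines, in C2C12 cells and PMs. Dotted lines stand at a log2 fold change of 1 in each direction, and open symbols mark values that were not called, which is every value shown. Mef2c in C2C12 cells at day 3 (-1.55) lies farthest from 0.

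In PMs, Mef2a was the one member that passed the adjusted p with siTead1/4. It was at 311 and 354 CPM in silenced cells at day 0 against 481 and 512 CPM in controls, and at 563 and 504 CPM at day 3 against 780 and 724 CPM. At day 6 the levels of 548 and 555 CPM lay within the 534 to 576 CPM of the controls. The log2 fold changes were -0.59 ± 0.11 at day 0 (adjusted p = 0.011) and -0.50 ± 0.11 at day 3 (adjusted p = 0.021), past the adjusted p but not the fold threshold, and -0.01 at day 6 (95% interval -0.25 to 0.23). Without 1 library each, the values stayed between -0.68 and -0.50 at day 0 and between -0.59 and -0.43 at day 3, and over all alternatives the adjusted p ranged from 4.81e-06 to 0.11 and from 0.00016 to 0.14. The sum of the fibroblast markers, mostly Col3a1, also differed at day 0, with 744 and 753 CPM in the silenced against 459 to 503 CPM in the control libraries. Its part in the result was not tested.

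No other member in PMs passed the adjusted p. Mef2c was at 168 and 140 CPM at day 0 against 193 and 205 CPM (log2 fold change -0.38 ± 0.13, adjusted p = 0.10), and its log2 fold change was -0.19 at both later days. Myog at day 3 was at 674 and 842 CPM against 986 and 1168 CPM (-0.51 ± 0.17, adjusted p = 0.092), while at days 0 and 6 the log2 fold changes were 0.01 and -0.03. Myf5 at day 3 was at 33.2 and 42.9 CPM against 17.4 and 28.5 CPM (0.72 ± 0.24, adjusted p = 0.11). Without the second control replicate this Myf5 difference was 1.12 and called (adjusted p = 0.043, with a range of 0.0054 to 0.59 over all alternatives). Myod1 and Mef2d were flat, with log2 fold changes between -0.12 and 0.12 at all 3 days, and none of their 95% intervals reached beyond -0.64 or 0.62. Myf6 was at 14.6 and 12.3 CPM against 11.5 and 8.90 CPM at day 0 (0.39 ± 0.16, adjusted p = 0.18) and differed by -0.23 and -0.10 on the log2 scale at days 3 and 6.

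The siTead1/4 effect was compared between the cell types as an interaction over all 24 libraries. No member was called at days 0, 3 and 6, where 0.00591%, 1.25% and 0.0354% of 16926 genes were. An unadjusted p of 0.05 was passed by 1, 2 and 2 members (Mef2c at each day, with Mef2d at days 3 and 6). Among all genes it was passed by 725, 2205 and 916. The difference of the Mef2c effect, PMs minus C2C12 cells, was -1.30 ± 0.42 at day 0, 1.34 ± 0.41 at day 3 and 0.95 ± 0.41 at day 6. For Mef2d it was 0.73 ± 0.21 at day 3 (adjusted p = 0.11) and 0.62 ± 0.21 at day 6. DESeq2 called Mef2c at day 3 and no other member at any day. A difference in the effect of silencing between C2C12 cells and PMs was therefore not shown by the main test for any of the 7 genes.

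Between control PMs and control C2C12 cells, more members were called at day 0 than later. At day 0, 6 of 7 members were higher in PMs, beside 26.8% of all genes called. Myog stood at 960 and 1039 CPM against 9.68 and 2.91 CPM, a log2 fold change of 7.33 ± 0.60 (adjusted p = 4.99e-08), which was 8.42 without the first and 6.69 without the second C2C12 replicate. Myf6 was higher by 4.78 ± 0.51 (5.89 without the second C2C12 replicate), Mef2c by 4.43 ± 0.34, Myod1 by 2.94 ± 0.26, Mef2a by 2.42 ± 0.16 and Myf5 by 1.78 ± 0.50 on the log2 scale. Mef2d, at 172 and 174 CPM against 99.9 and 91.4 CPM, differed by 0.85 ± 0.15 and missed the fold threshold. The call of Myf5 was lost without the first C2C12 replicate (1.42) and without the second PM replicate (1.54). Myh3, an embryonic myosin of differentiating muscle, was at 2425 CPM or more in every PM library.

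At day 3 the count was 3 of 7, beside 29.8% of the genes, and at day 6 it was 2 of 7, beside 24.9%. Myf6 had the widest gap at these days, at 75.8 and 97.6 CPM against 0.566 and 1.88 CPM at day 3 (6.12 ± 0.49, and 5.52 or 7.25 without the first or second C2C12 replicate) and 85.6 and 95.7 CPM against 4.16 and 4.21 CPM at day 6 (4.44 ± 0.44). Mef2c was higher in PMs by 1.66 ± 0.30 and 1.31 ± 0.30, and Myod1 by 1.33 ± 0.25 at day 3 and by 0.95 ± 0.24, under the fold threshold, at day 6. Myog no longer differed by the test, with log2 fold changes of -0.08 (95% interval -1.04 to 0.87) and 0.24 (-0.72 to 1.20) and overlapping libraries. Mef2a and Mef2d were higher in PMs at both days by 0.51 to 0.93 on the log2 scale, past the adjusted p alone.

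**Figure D4:**
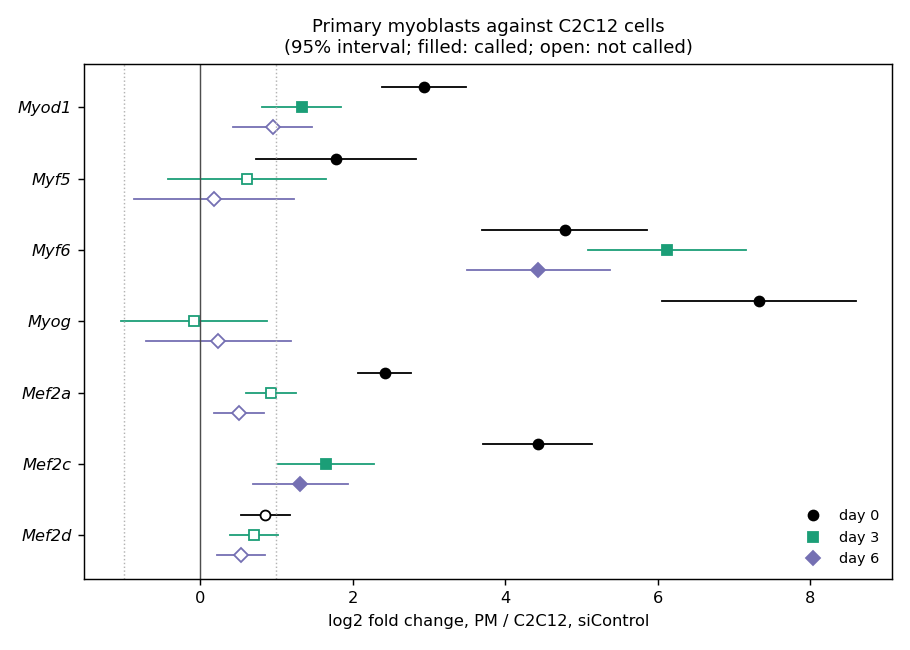
Fitted log2 fold change of siControl PMs against siControl C2C12 cells (x axis) for each gene at days 0, 3 and 6, with 95% confidence intervals as lines. Filled symbols were called. The Myog value drops from 7.33 at day 0 to -0.08 at day 3, whereas Myf6 lies between 4.44 and 6.12 at all days.

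The responses of the cell types to differentiation were compared as an interaction, which shares its day 0 libraries with the comparisons above. At day 3, 4 of 7 members differed, beside 11.2% of the genes, and at day 6 the same 4, beside 12.7%. The response in PMs minus that in C2C12 cells was -7.41 ± 0.72 for Myog (-8.50 and -6.77 without the first and second C2C12 day 0 replicate), -2.77 ± 0.42 for Mef2c, -1.61 ± 0.34 for Myod1 and -1.49 ± 0.22 for Mef2a at day 3 on the log2 scale. For Myog, Mef2c and Mef2a the level in C2C12 cells began lower at day 0 and rose more. Myod1 fell in PMs and did not pass the test in C2C12 cells. Mef2d differed by -0.15 (95% interval -0.59 to 0.30) and -0.32 (-0.76 to 0.13), and Myf5 and Myf6 were not called.

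Within each family, levels were compared per kilobase of gene length, so that longer genes do not count for more. Among the 4 bHLH genes, Myod1 made up 81.0% and 76.0% of the summed CPM per kb in siControl C2C12 cells at day 0, and Myog 7.22% and 2.19%. At day 3 Myog held 88.6% and 88.1%, with the family sum at 872 ± 12.3 CPM per kb (SD, n = 2) against 90.3 ± 0.433 at day 0. In PMs the family was shared at day 0, with 43.6% and 41.5% for Myod1 and 52.2% and 53.4% for Myog, and the sum was 1279 ± 49.9 CPM per kb. Myog rose there to 69.7% and 69.8% at day 3. Myf6 reached 8.69% and 6.92% of the bHLH sum in siControl PMs at day 6, while its share in C2C12 cells was at most 0.773% in any library.

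Among the 3 Mef2 genes the lead passed to Mef2c in control cells of both types. Mef2a and Mef2d held 42.2% and 54.0% in the first and 48.4% and 47.6% in the second siControl C2C12 library at day 0, and Mef2c 3.76% and 3.99%. By day 6 Mef2c held 47.1% and 49.5%. In siControl PMs Mef2a led at day 0 with 57.8% and 58.4%, and Mef2c led at day 6 with 61.7% and 62.0%. In siTead1/4 C2C12 cells at day 6 the share of Mef2c was 28.2% and 39.7%, below both control libraries, and Mef2a led on average (39.3% against 34.0% for Mef2c). In siTead1/4 PMs at day 6 the share of Mef2c was 56.3% and 59.1%. These shares are given as a description, with no test.

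**Figure D5:**
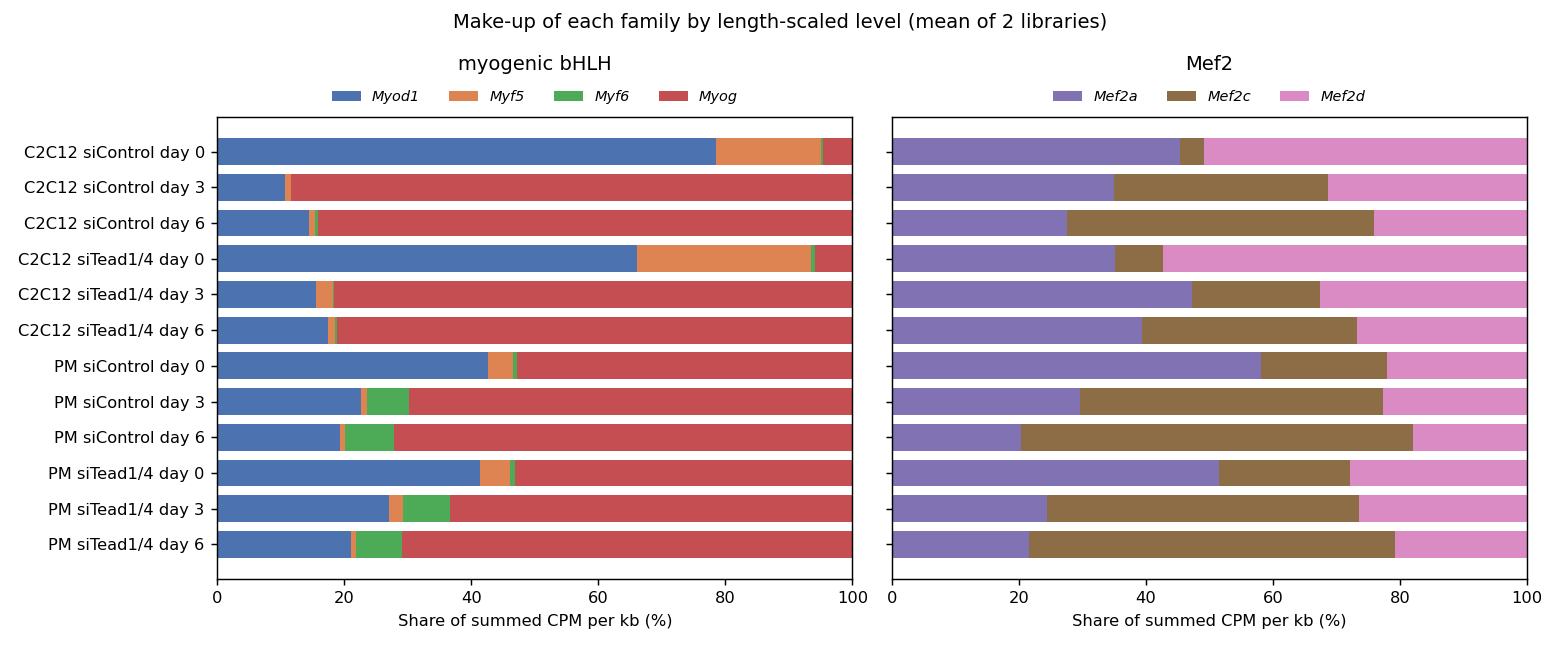
Share of each gene in the summed CPM per kilobase of its family (x axis, percent, from 0 to 100) for the 12 groups, as the mean of 2 libraries, for the bHLH genes on the left and the Mef2 genes on the right. The Myod1 share shrinks and the Myog share grows from day 0 to day 3, from 4.71% to 88.3% in siControl C2C12 cells, and the Mef2c share is largest at day 6 in control cells of both types.

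Ordered over the 12 groups, the members fell into different patterns. For Myod1 all 6 PM groups stood above all 6 C2C12 groups, led by both day 0 groups of PMs, whose ranges overlapped (means of 1009 ± 4.19 and 989 ± 33.8 CPM). The 6 PM groups of Myf6 likewise stood above those of C2C12 cells, with the day 3 and day 6 groups at means of 74.6 to 90.7 CPM and the lowest group, siControl C2C12 cells at day 0, at 0.342 ± 0.245 CPM. For Myog the 10 groups other than day 0 in C2C12 cells formed a chain from 684 ± 272 to 1139 ± 20.4 CPM in which the ranges of all neighbours overlapped. Myf5 was highest in day 0 PMs, at 129 ± 23.2 and 107 ± 23.8 CPM with overlapping ranges, and its 4 day 6 groups had means of 12.6 to 16.9 CPM. The 4 differentiated PM groups led for Mef2c, each above the next without overlap, from 1977 ± 170 CPM in siControl cells at day 6 to 1253 ± 78.2 CPM in siTead1/4 cells at day 3. Mef2a peaked in siControl PMs at day 3 (752 ± 40.1 CPM), apart from all other groups. Mef2d spanned the narrowest range of the members, 2.48 on the log2 scale between its highest and lowest group means, whereas Myf6 spanned 8.01.

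Factors that work with or against the members were taken as lists chosen with earlier results of these data known. Of the 3 E proteins, the partners of the bHLH factors, none was called with siTead1/4 in either cell type, where at most 3.30% of all genes were. During differentiation of siControl C2C12 cells 1 was called up (Tcf4, 1.38 at day 3) and 1 down (Tcf3, -1.08), and in PMs 2 fell, namely Tcf3 (-1.79) and Tcf12 (-1.18), all named after their values were seen. The list median log2 fold change at day 3 was 0.61 in C2C12 cells and -1.18 in PMs, beside -0.01 and 0.01 for all genes. At day 3, 28.7% of all genes in C2C12 cells and 32.3% in PMs were called in either direction, and a list of 3 genes was not tested against these shares.

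Of the 15 inhibitors and competitors of bHLH factors, which include the Id, Twist, Snai and Hey families, 13 were tested in C2C12 cells and 14 in PMs. At day 3 of siControl differentiation 4 were up and 6 down in C2C12 cells and 2 up and 6 down in PMs, with medians of -1.09 and -0.87 beside -0.01 and 0.01 for all genes. Of all genes, 28.7% in C2C12 cells and 32.3% in PMs were called in either direction in these comparisons. With siTead1/4 a single gene of this list was called, Mdfi (I-mfa, which holds bHLH factors in the cytoplasm), in PMs at day 0. It went from a mean of 5.69 to 21.1 CPM (log2 fold change 1.88 ± 0.28, adjusted p = 0.0041), where 2.60% of all genes were called in either direction.

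The class IIa deacetylase Hdac9, a Mef2 repressor and itself a known Mef2 target, was the 1 gene of 5 Mef2 repressors called with siTead1/4. It was down-regulated in C2C12 cells at day 3, from a mean of 28.8 to 5.92 CPM (-2.31 ± 0.31, adjusted p = 0.013), and the effect differed between the cell types by 2.91 ± 0.36 (adjusted p = 0.00090). Of all genes, 1.27% were called in the first and 1.25% in the second of these comparisons. No gene of the 10 coactivators and kinases was called with siTead1/4, with medians between -0.15 and 0.09, and of the 9 upstream regulators only Pitx3 was, in PMs at day 3 (32.6 against 16.1 CPM, 1.01 ± 0.17, adjusted p = 0.0065). Among all genes, the share called with siTead1/4 ran from 0.0457% to 3.30%, the latter in PMs at day 3. Whether these lists differ from all genes was not tested.

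Genes known as targets of the bHLH and Mef2 factors form the last list. All 21 tested of 22 were up-regulated at days 3 and 6 in siControl C2C12 cells, with medians of 7.78 and 7.83, where 16.0% and 17.1% of all genes were up-regulated. In siControl PMs 16 and 14 were, with medians of 1.54 and 1.58, where 17.5% and 20.2% of all genes were. At day 0, 19 of 21 were higher in PMs than in C2C12 cells, with a median of 6.13, beside 16.3% of all genes higher in PMs. With siTead1/4, 2 of 21 were down-regulated in C2C12 cells at day 3, where 1.08% of all genes were, namely Myh3 (a mean of 1222 against 6633 CPM, -2.47 ± 0.45, adjusted p = 0.034) and the troponin gene Tnnt2 (762 against 1947 CPM, -1.38 ± 0.26, adjusted p = 0.034). In PMs 1 of 21 was, beside 1.20% of all genes, the slow troponin gene Tnni1 at day 3 (1579 against 3168 CPM, -1.01 ± 0.20, adjusted p = 0.013). The list median was -0.92 at day 3 and -0.53 at day 6 in C2C12 cells, and -0.23 and -0.06 in PMs, beside medians of all genes between 0.00 and 0.01. The siTead1/4 effect differed between the cell types for 1 target, the cell cycle regulator Rb1, at day 3 (1.17 ± 0.23, adjusted p = 0.020), beside 1.25% of all genes.

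As a description with no test, the 3 genes whose 12 group means of log2 CPM were most like those of a member were sought among 16925 genes tested over all libraries. For Myog they were Rbm24 (an RNA-binding protein of muscle, Pearson's r = 0.996), Otog (0.991) and Gm7325 (the fusion peptide myomixer, 0.990). For Mef2d they were Lrba, the muscle cofilin Cfl2 and Trp53inp2 (0.994, 0.992 and 0.986), and for Mef2a Fam120c, Msi2 and the cardiac actin Actc1 (0.990, 0.988 and 0.986). Myf6 was most like Gm12406, Cmya5 and Romo1 (0.988, 0.987 and 0.986), Myod1 like Ilkap, Gbp4 and 4930509G22Rik (0.982, 0.981 and 0.981), and Myf5 like Scn9a, Pwwp2b and Rbm34 (0.968, 0.966 and 0.965). The 12 points share their libraries, and the day and cell type set most of their spread. Among the members themselves, r was highest between Mef2c and Mef2d (0.959) and between Myog and Mef2a (0.939), and lowest between Myf5 and Mef2d (-0.473).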

How the data were processed

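Polyadenylated RNA of 24 libraries was sequenced with an unstranded kit. Per the labels, the authors used CASAVA 1.8.2, aligned reads to mm9 with TopHat2 2.0.10 and Bowtie2 2.1.0, counted reads per gene with HTSeq 0.6.1 and normalized with DESeq2 1.8.1. The deposited values used here are the raw read counts per gene of each library, together with the deposited gene length. The authors' normalized values, and 36 columns of 12 libraries that the sample list used here does not hold, were not used.

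Counts were filtered with filterByExpr, scaled with TMM and tested with edgeR 4.0.16 (quasi-likelihood, limma 3.58.1, R 4.3.3) in 1 fit of 12 libraries per cell type, and in 1 fit of all 24 libraries for contrasts between cell types. Thresholds were a Benjamini-Hochberg adjusted p of 0.05 over all genes tested and an absolute log2 fold change of 1. The procedure was tested on simulated data. DESeq2 1.42.0, RLE size factors, no filter, fewer or more libraries in the fit, a replicate block, the adjusted p alone and leaving out each library were tried as alternatives.

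Depth was 25453830 to 52784510 counts per library. With 2 replicates per group, p-values measure the spread between these cultures. The set of members and the gene lists were chosen with earlier results of these data known, and the members were then found in the table by gene name. Genes named are the 8 members, Tead1 and Tead4, at most 4 called genes of each list per siTead1/4 comparison, and the 3 genes most like each member over the 12 group means, where those span at least 2 on the log2 scale. The genes most like Mef2c are not reported here. E proteins called in differentiation were named after their values were seen. Promoter windows came from the mm9 genome with GENCODE vM1.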

Additional observations from a re-analysis of the deposited data

Results flagged for a closer look

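The response to differentiation differed between siControl PMs and siControl C2C12 cells for 4 members by a test of the difference itself (edgeR, all 24 libraries in 1 fit). All values are log2 fold changes against day 0 in PMs minus those in C2C12 cells, with n = 2 libraries per group. Myog, which drives terminal differentiation, differed by -7.41 at day 3 (adjusted p = 2.54e-06) and -7.09 at day 6 (adjusted p = 3.02e-06), and without the first C2C12 day 0 replicate by -8.50 and -8.18, without the second by -6.77 and -6.45. Mef2c differed by -2.77 at day 3 (adjusted p = 0.00023) and -3.11 at day 6 (adjusted p = 6.55e-05), and Mef2a by -1.49 at day 3 (adjusted p = 0.00017) and -1.91 at day 6 (adjusted p = 1.24e-05). Myod1 differed by -1.61 at day 3 (adjusted p = 0.0041) and -1.99 at day 6 (adjusted p = 0.00067). Day 3 and day 6 share their day 0 libraries. Cell type, strain, origin, culture medium and the state of the cultures at day 0 cannot be told apart in these differences.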

How the results depend on the processing

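Of the 182 fold changes of members, none turned its direction past the test under any alternative, and with RLE size factors all 182 kept their side of the threshold. The counts of members called that moved by over 1.5 times were these, and smaller moves are left out here. Without the filter on low counts, 2 members were called for siTead1/4 against siControl in C2C12 cells at day 3 and 1 at day 6, 1 between days 3 and 6 in siControl and 3 in siTead1/4 C2C12 cells, and 1 each for the difference of the siTead1/4 effect at days 0 and 3. DESeq2 called 1 member for the siTead1/4 effect in C2C12 cells at day 3 and 1 for its difference between the cell types at day 3. With all 24 libraries in 1 fit, 1 member was called with siTead1/4 in C2C12 cells at day 3 and 0 between days 3 and 6 in siTead1/4 PMs. By the adjusted p alone, 1 member was called between days 3 and 6 in siControl PMs, 1 with siTead1/4 in PMs at day 0 and 1 at day 3, and 5 between siControl PMs and C2C12 cells at day 3 and 5 at day 6. Leaving out 1 library gave 3 to 5 members in place of 6 at day 6 of siTead1/4 C2C12 cells (3 without the second day 6 replicate), 0 to 1 with siTead1/4 in PMs at day 3 (1 without the second siControl replicate) and 0 between days 3 and 6 in siTead1/4 PMs. The cause of these shifts was not tested.

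Over all genes DESeq2 called more than edgeR with siTead1/4 in C2C12 cells, with 255, 597 and 143 genes at days 0, 3 and 6 against 21 up and 46 down, 29 up and 166 down, and 2 up and 5 down. In PMs at day 6 it called 222, against 75 up and 45 down. For the difference of the effect it called 32, 494 and 59 genes, against 1 up, 172 up and 40 down, and 5 up and 1 down.

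Deviations of same-numbered replicates correlated at -0.20 to 0.52 over the 15 pairs of C2C12 groups and 0.069 to 0.54 over those of PMs, with 6 and 14 of the 15 above 0.1. The codes in the titles run consecutively within each replicate number of a cell type, but name no shared culture or day. Since this leaves a pairing open and not every pair passed 0.1, the numbers were not taken as a pairing. Those of PMs nevertheless deviated together in most pairs. The highest values in PMs were between siControl and siTead1/4 of the same day (0.41, 0.44 and 0.54 at days 0, 3 and 6). In C2C12 cells these same-day values were -0.14, 0.095 and 0.52. The block used next has 1 term per cell type over all days, so a pairing within a day was not modelled. With the replicate as a block, 5 members in place of 4 were called at day 3 in siControl C2C12 cells, where Myf6 passed (1.73, adjusted p = 0.015), and no other call of a member changed, while Myf6 between siControl PMs and C2C12 cells at day 0 went from 4.78 to 5.37. The count of Myf6 in C2C12 cells at day 0, 6 and 29 reads in siControl, limits its fold changes, and leaving out 1 library lost 13 and gained 7 of the calls among 868 values.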
